A study of Mus musculus with 6 samples.

Results

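The surface colonocyte genes of mouse colonic mucosa described here were 9 genes for water, acid-base, chloride, sodium and phosphate transport and for luminal enzymes and peptides, namely Aqp8, Aqp4, Car1, Car4, Slc26a3, Slc9a3, Slc20a1, Mep1a and Guca2a. They were followed through every probe of an Illumina bead array whose single gene symbol was one of these names, 9 of 17704 genes so named, with 19 of the 29976 probes that had 1 symbol (46632 probes in all). RNA came from colonic mucosa of FVB/N6 mice aged 8 weeks, and 5 mice were pooled for each array. The 6 groups of 1 pool each were Foxo4 knockout (Foxo4_KO) mice untreated, 2 days after an enema of 50% ethanol, and 2 days after an enema of trinitrobenzene sulfonic acid (TNBS) in 50% ethanol, with the amount labelled as 250 mg, and wild-type (WT) mice in the same 3 states. TNBS is a hapten used with ethanol to induce experimental colitis, and the ethanol enema is the vehicle control. The labels give neither the allele of the knockout nor the sex of the mice, and a pool of 5 mice on 1 array gives no spread between mice. The Foxo4 probe was not above background in any pool, so the array did not check the genotype labels.

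Surface colonocytes are the mature absorptive cells that line the colonic lumen. They take up sodium and chloride through paired exchange of sodium for protons and of chloride for bicarbonate, carbonic anhydrases supply the protons and bicarbonate, and water follows. Guanylin, the product of Guca2a, is a peptide secreted toward the lumen that acts through guanylate cyclase C and raises fluid secretion. Foxo4 encodes a forkhead transcription factor that is held out of the nucleus by insulin and growth factor signalling.

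The promoters of the genes on which the results below turn are shown as 250 bases before a transcript start listed by RefSeq, 5′ to 3′ on the strand of the gene, on build GRCm38.p6. The windows of Slc26a3, Mep1a and Slc9a3, and 1 of 2 windows of Slc20a1, lie inside the outer boundaries of the annotated gene, so theirs is not the outermost start. Capitals mark motif matches that were searched on both strands: the FOXO core GTAAACA, the CDX motif TTTATNG, the HNF4 motif CAAAGTCC, the KLF motif GGGNGTG and the TATA motif TATAAA. Aqp8 is shown because its level differed most between pools, Mep1a and Slc26a3 because they were lower in every enema pool, and Guca2a because it held the FOXO core.
Aqp8, chr7:123462044-123462293, plus strand: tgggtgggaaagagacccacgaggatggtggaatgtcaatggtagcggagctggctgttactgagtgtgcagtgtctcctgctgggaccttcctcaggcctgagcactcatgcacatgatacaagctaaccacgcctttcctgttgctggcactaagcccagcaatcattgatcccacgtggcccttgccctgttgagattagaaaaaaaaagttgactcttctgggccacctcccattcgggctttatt
Mep1a, chr17:43502774-43503023, minus strand: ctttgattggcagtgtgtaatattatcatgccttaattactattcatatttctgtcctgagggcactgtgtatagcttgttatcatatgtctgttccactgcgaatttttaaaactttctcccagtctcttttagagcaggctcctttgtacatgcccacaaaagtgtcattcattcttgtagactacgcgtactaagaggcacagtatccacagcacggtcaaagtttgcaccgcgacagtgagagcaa
Slc26a3, chr12:31437969-31438218, plus strand: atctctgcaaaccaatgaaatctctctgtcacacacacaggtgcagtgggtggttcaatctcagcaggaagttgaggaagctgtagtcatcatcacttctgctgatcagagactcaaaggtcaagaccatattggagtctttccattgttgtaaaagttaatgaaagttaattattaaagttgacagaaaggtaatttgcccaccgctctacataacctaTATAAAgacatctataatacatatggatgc
Guca2a, chr4:119637482-119637731, plus strand: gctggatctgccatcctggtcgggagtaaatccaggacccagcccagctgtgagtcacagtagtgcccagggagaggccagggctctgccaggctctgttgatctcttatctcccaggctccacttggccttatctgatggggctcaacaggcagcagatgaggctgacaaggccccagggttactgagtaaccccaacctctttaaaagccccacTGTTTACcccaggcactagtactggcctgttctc
The FOXO core in the Guca2a window lay on the opposite strand, 34 bases before the start, and 3.17% of the 32851 promoters of the same length held one. The TATA motif of Slc26a3 lay 30 bases before the start and is held by 12.4% of promoters. Slc9a3 held the KLF motif, held by 26.1% of promoters, at 2 places, 141 and 122 bases before that internal start. The windows of Aqp8, Mep1a, Car4 and Slc20a1 held none of these letters, and windows for Car1 and Aqp4 are not shown. CDX and HNF4 motifs are held by 9.81% and 1.20% of promoters. These matches describe letters in a window and are not measured sites.

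Of the 19 probes, 15 were above background (detection p under 0.01) on at least 1 array, and they were fitted together with all 11760 probes that met this filter. The 4 that did not were 3 of the 6 Aqp4 probes and 1 of the 2 Slc9a3 probes. A level below is the background-corrected, quantile-normalised log2 signal of the brightest probe of a gene unless another is named, and levels of different genes are not set against each other. The Foxo4_KO TNBS array stood apart from the rest, correlating at 0.961 to 0.979 with the other 5, while those correlated with each other at 0.982 to 0.991. In whole mucosa, fewer surface cells and less RNA per surface cell cannot be told apart.

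**Figure D1:**
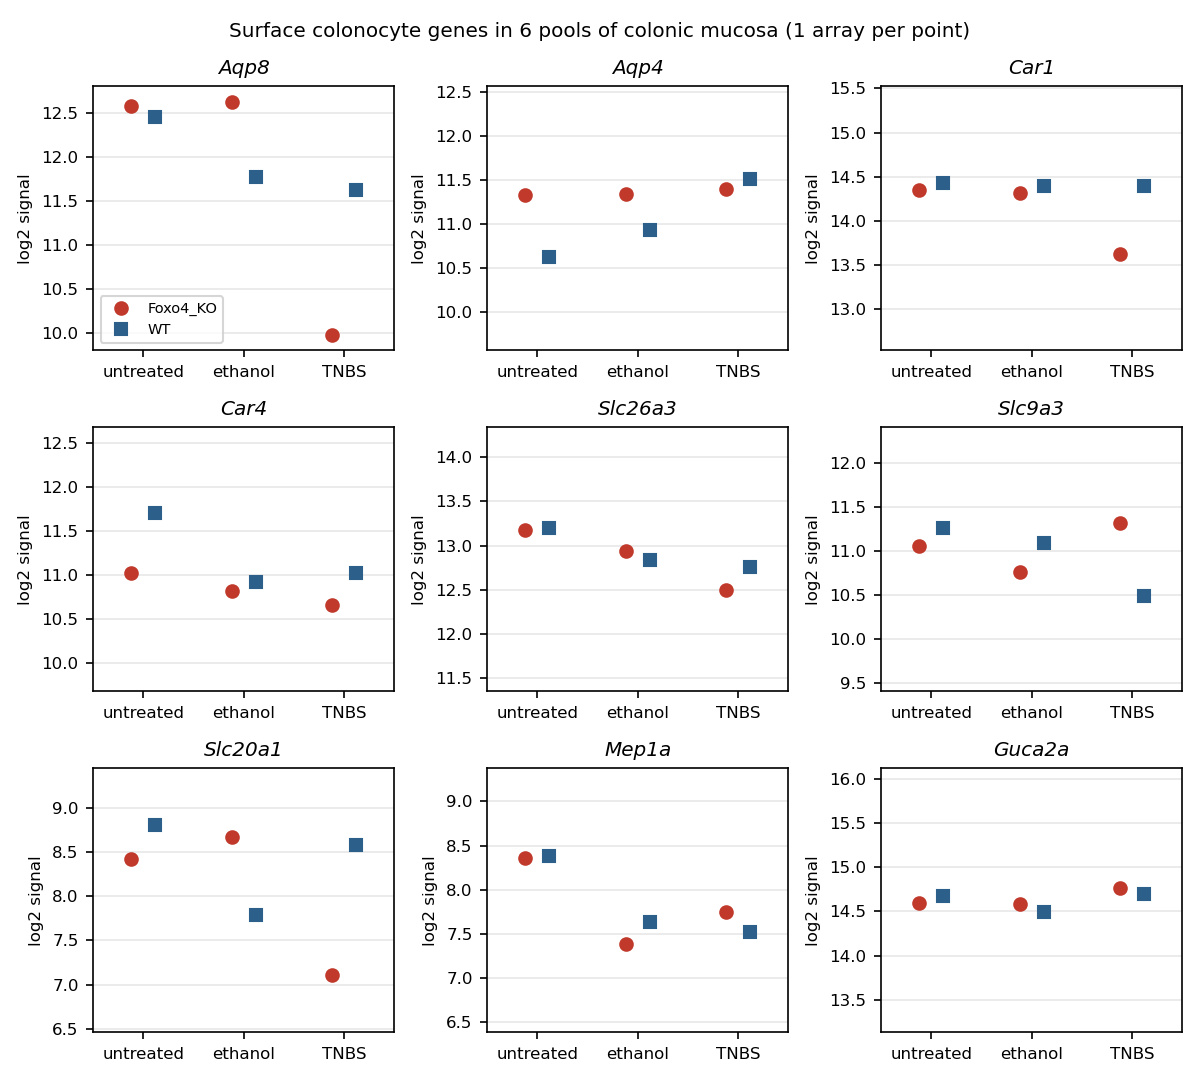
Log2 signal of the brightest probe of each gene in the 6 pools, 1 array per point, with every panel spanning the same range of 3 log2 units on its vertical axis. Aqp8 and Slc20a1 were lowest in the Foxo4_KO TNBS pool, Mep1a was lower in the 4 enema pools than in both untreated pools, and Guca2a stayed within 0.27.

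Aqp8, a water channel of the apical membrane of surface colonocytes, differed most between pools. In Foxo4_KO mice its log2 signal was 12.58 untreated, 12.63 after ethanol and 9.98 after TNBS, against 12.45, 11.78 and 11.62 in WT mice. The Foxo4_KO TNBS pool lay below the others, and the next lowest, WT TNBS, was 1.64 higher. In the additive model, where both genotypes stand in for replicates of a treatment, TNBS minus ethanol was -1.40 (SE 0.69, adjusted p = 0.768, limma) and TNBS minus untreated -1.71 (adjusted p = 0.508). Without the Foxo4_KO TNBS pool the same values were -0.33 and -0.65. As single pools without a test, TNBS minus ethanol was -2.64 in Foxo4_KO mice and -0.15 in WT mice.

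Aqp4, a water channel of basolateral membranes, was highest in the TNBS pool within each genotype. Its level was 11.33 untreated, 11.34 after ethanol and 11.40 after TNBS in Foxo4_KO mice, against 10.63, 10.94 and 11.51 in WT mice. The 3 Foxo4_KO pools were close together, the untreated WT pool was lowest and the WT TNBS pool highest. TNBS minus untreated was 0.47 (SE 0.23, adjusted p = 0.561), and Foxo4_KO minus WT was 0.33 (adjusted p = 0.684). Without the Foxo4_KO TNBS pool they were 0.81 and 0.55, and over all fits that left out 1 pool they spanned 0.14 to 0.81 and 0.14 to 0.55. The dimmer Aqp4 probes above background stayed between 6.62 and 6.86. Of the 9 other aquaporins listed, 8 had a probe on the array and 2, Aqp1 and Aqp11, were above background; neither was called in any of the 4 contrasts.

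Car1, a cytosolic carbonic anhydrase and a marker of mature colonocytes, was nearly level in 5 pools and lower in 1. Its log2 signal was 14.34 untreated, 14.32 after ethanol and 13.63 after TNBS in Foxo4_KO mice, against 14.43, 14.39 and 14.39 in WT mice. Without the Foxo4_KO TNBS pool the 5 remaining levels spanned 14.32 to 14.43. TNBS minus untreated was -0.38 (SE 0.22, adjusted p = 0.620) and Foxo4_KO minus WT -0.31 (adjusted p = 0.691); without the Foxo4_KO TNBS pool they were -0.04 and -0.08. Raw Car1 signals of 14844 to 22665 lay in the upper part of the range of the arrays, whose highest signals were 28529 to 34619, where a bead array can compress differences.

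Car4, a membrane-anchored carbonic anhydrase of the luminal surface, was highest in the untreated WT pool. Its level was 11.02 untreated, 10.81 after ethanol and 10.65 after TNBS in Foxo4_KO mice, against 11.70, 10.92 and 11.02 in WT mice. It was lower in Foxo4_KO than in WT mice in all 3 treatments, by 0.68 untreated, 0.11 after ethanol and 0.36 after TNBS. Foxo4_KO minus WT was -0.38 (SE 0.13, unadjusted p = 0.0491, adjusted p = 0.549), and TNBS minus untreated was -0.53 (SE 0.16, adjusted p = 0.415). These rested in part on the untreated WT pool, without which they were -0.23 and -0.30; without the untreated Foxo4_KO pool they were -0.23 and -0.75. Of 14 other carbonic anhydrases listed, 6 were above background and none was called; Car2, the abundant cytosolic form, read 11.05, 11.53 and 9.79 in Foxo4_KO mice, against 11.30, 11.18 and 10.64 in WT mice. Car3, another cytosolic form, differed the other way, at 7.59, 8.48 and 9.74 in Foxo4_KO mice, against 7.46, 7.91 and 10.37 in WT mice (TNBS minus untreated 2.53, adjusted p = 0.320). Both were picked out after their values were seen.

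Slc26a3, the apical exchanger of chloride for bicarbonate, was lower in all 4 enema pools than in both untreated pools. Its level was 13.17 untreated, 12.93 after ethanol and 12.49 after TNBS in Foxo4_KO mice, against 13.20, 12.83 and 12.75 in WT mice. The untreated pools of both genotypes nearly coincided. TNBS minus untreated was -0.56 (SE 0.11, unadjusted p = 0.00904, adjusted p = 0.329), and -0.41 without the Foxo4_KO TNBS pool. Its 2 dimmer probes showed the same order of treatments, at 6.62 to 7.03, with TNBS minus untreated of -0.31 (adjusted p = 0.320) and -0.16 (adjusted p = 0.416). These 2 probes lay near background, with raw signals of 94 to 177 against 6763 to 9647 for the brightest. The residual SD of the first was 0.015, against a median of 0.075 over all probes.

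Slc9a3, the apical exchanger of sodium for protons known as NHE3, was higher in the TNBS than in the ethanol pool of Foxo4_KO mice and lower in that of WT mice. Its level was 11.06 untreated, 10.76 after ethanol and 11.32 after TNBS in Foxo4_KO mice, against 11.27, 11.09 and 10.50 in WT mice. The Foxo4_KO TNBS pool was highest of the 6 and the WT TNBS pool lowest, so additive contrasts averaged the opposite pools: TNBS minus ethanol was -0.01 (SE 0.34, adjusted p = 0.996), and -0.56 without the Foxo4_KO TNBS pool. As single pools without a test, it was 0.56 in Foxo4_KO and -0.59 in WT mice, and 1.32% of all probes opposed by at least 0.3 each way, as Slc20a1 below did too. Of 24 other chloride, bicarbonate and sodium-proton transport genes listed, 17 were above background and none was called. In Foxo4_KO minus WT 12 were lower and 5 higher, with a median of -0.03 against -0.01 over all probes. The largest difference was for Atp12a (-0.95, adjusted p = 0.549). It read 9.93, 8.69 and 9.22 in Foxo4_KO mice, against 10.07, 10.32 and 10.29 in WT mice. Best2, a channel of goblet cells, was next (-0.68, adjusted p = 0.430). It read 6.86, 7.05 and 7.45 in Foxo4_KO mice, against 7.70, 7.85 and 7.85 in WT mice. Slc9a3r2 (0.43, adjusted p = 0.659) and Slc9a3r1 (0.34, adjusted p = 0.394) differed the other way. These genes were picked out by their values.

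Slc20a1, a sodium-dependent phosphate transporter (PiT-1), read 8.42 untreated, 8.67 after ethanol and 7.10 after TNBS in Foxo4_KO mice, against 8.81, 7.79 and 8.58 in WT mice. The Foxo4_KO TNBS pool was lowest, and as single pools without a test TNBS minus ethanol was -1.56 in Foxo4_KO and 0.80 in WT mice. TNBS minus untreated was -0.77 (SE 0.63, adjusted p = 0.740) and changed sign to 0.09 without the Foxo4_KO TNBS pool. Its dimmer probes, above background on 6 arrays and on 1, were at 6.62 to 6.81 and 6.52 to 6.64. Of 6 listed phosphate transporters 3 were above background, and none was called.

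Mep1a, the alpha subunit of meprin, a metalloprotease of the brush border, was lower in all 4 enema pools than in both untreated ones, by a margin larger than its residual spread. Its level was 8.36 untreated, 7.38 after ethanol and 7.74 after TNBS in Foxo4_KO mice, against 8.38, 7.63 and 7.52 in WT mice. Ethanol minus untreated was -0.86 (SE 0.13, unadjusted p = 0.00469, adjusted p = 0.775), and TNBS minus untreated -0.74 (adjusted p = 0.324), or -0.92 without the Foxo4_KO TNBS pool. TNBS minus ethanol was 0.12 (adjusted p = 0.893), and -0.0574 without that pool. Of 13 listed brush border genes 10 were above background: 8 were lower and 2 higher in ethanol than in untreated pools, with a median of -0.18 against 0.00 over all probes, and none was called. In TNBS against untreated pools 8 were also lower and 2 higher, with a median of -0.19 against 0.00. The 2 were the peptidases Anpep (3.57, adjusted p = 0.269) and Dpp4 (1.00, adjusted p = 0.371), whose differences were the largest of the list.

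Guca2a, which encodes guanylin, read 14.60 untreated, 14.58 after ethanol and 14.76 after TNBS in Foxo4_KO mice, against 14.68, 14.49 and 14.70 in WT mice. Both TNBS pools were the highest of their genotype. TNBS minus ethanol was 0.20 (SE 0.06, unadjusted p = 0.0409, adjusted p = 0.744). Raw signals of 23351 to 30069 lay close to the highest on the arrays, where quantile normalisation sets a level by its rank among the brightest probes, so these levels cannot show that the gene did not change. TNBS minus ethanol was -0.0166 under median scaling on detected probes. Of 5 listed guanylin pathway genes 4 were above background and none was called; uroguanylin, Guca2b, read 10.77, 10.82 and 11.76 in Foxo4_KO mice, against 11.06, 11.11 and 11.30 in WT mice.

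No probe among the 11760 tested passed an adjusted p of 0.05 in any of the 4 contrasts (limma, 0% called), so none of the surface colonocyte genes did; at an unadjusted p of 0.05, 3 of 15 probes were lower in ethanol than in untreated pools (3.02% of all probes) and none higher (2.66%). In TNBS against untreated pools 5 were lower (5.57%) and none higher (5.6%), in TNBS against ethanol pools 1 was higher (3.15%) and none lower (3.3%), and in Foxo4_KO against WT mice 1 was lower (5.37%) and none higher (3.58%). The 5 comprised the 3 Slc26a3 probes, Mep1a and Car4, so 3 genes. Under other settings the contrasts called up to 144 probes in 1 direction, as given in the closing section.

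**Figure D2:**
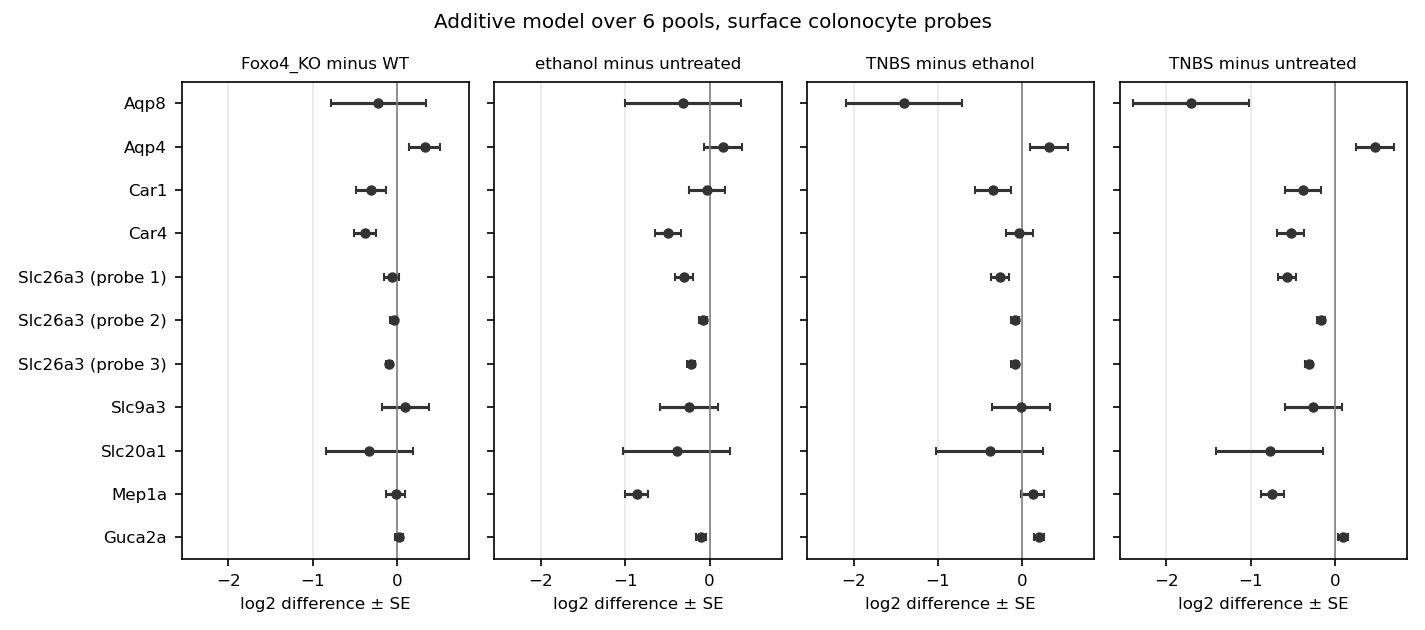
Additive-model log2 differences (points) with their standard errors (bars, n = 6 pools) for 11 surface colonocyte probes in 4 contrasts, the axis being the same in each panel. Mep1a and 1 dimmer Slc26a3 probe lay furthest from 0 for their error in the 2 contrasts with untreated pools, and Aqp8 had the largest error.

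Measured against both untreated pools, 5 of 15 probes were lower in every enema pool with no overlap, against 8.06% of all probes. The 5 were the 3 Slc26a3 probes, Mep1a and Car4, so 3 of 9 genes. Car4 met this only barely, since its WT TNBS pool and its untreated Foxo4_KO pool both round to 11.02. This count was chosen after the data were seen, and the members with earlier results of these data known. Shares of all probes set beside counts of members are therefore descriptions and not tests. Without the Foxo4_KO TNBS pool 5 probes again had no overlap (12.4% of all probes), with the ethanol pools alone 7 (17.6%) and with the TNBS pools alone 6 (18.3%). No probe was higher in all 4 enema pools without overlap (7.93% of all probes). Of 15 probes 12 were lower in ethanol than in untreated pools, with a median of -0.10 against 0.00 over all probes. In TNBS against untreated pools 11 were lower, with a median of -0.25 against 0.00. These counts include the dimmer Aqp4 and Slc20a1 probes and depended on the setting. Under median scaling they were 13 and 11 over all probes, and 7 and 11 over detected probes. Over the fits that left out 1 pool they spanned 9 to 14 and 9 to 12. Of 20 further surface colonocyte genes listed, some of which, such as Car2 and Cdhr5, are also in the lists above, 17 were above background, and 13 of them were lower and 4 higher in ethanol than in untreated pools, with a median of -0.19 against 0.00 over all probes. In TNBS against untreated pools 10 were lower and 7 higher, and none of the 17 was called in either contrast.

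The Foxo4_KO TNBS pool was the lowest of the 6 for 10 of 15 probes and 5 of 9 genes, against 28.2% of all probes, and the highest for 2, Slc9a3 and Guca2a, against 25.5%. Of 15 probes 4 were lower in Foxo4_KO than in WT mice in all 3 treatments, namely Car1, Car4, 1 Slc26a3 probe and 1 Slc20a1 probe, against 18.9% of all probes, and none was higher in all 3, against 13% of all probes. As single pools, Aqp8 and Slc20a1 were at least 2-fold lower in Foxo4_KO than in WT mice after TNBS (0.588% of all probes) and in TNBS than in ethanol pools of Foxo4_KO mice (1.01%), and Slc20a1 in the ethanol than in the untreated pool of WT mice (0.296%). Foxo4_KO minus WT opposed between TNBS and ethanol for Aqp8, Slc20a1 and Slc9a3 (1.85% of all probes) and between ethanol and untreated for Slc20a1 (1.39%). Foxo4_KO minus WT was lower for 10 of 15 probes in the model, and for 7 of 15 when either of the TNBS pools was left out.

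**Figure D3:**
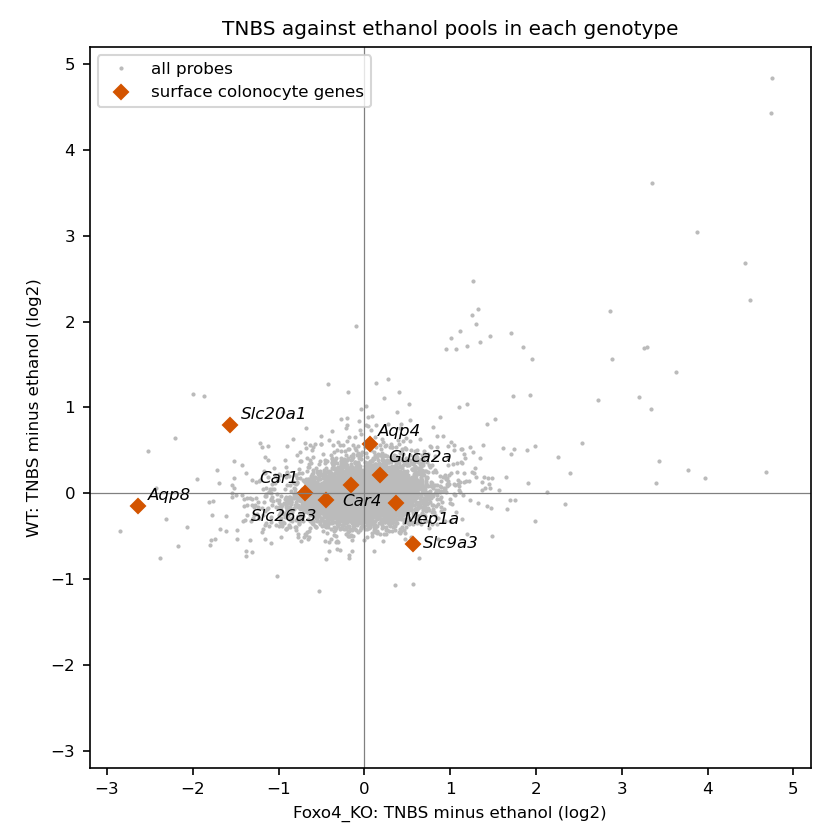
Log2 difference of the TNBS pool minus the ethanol pool in Foxo4_KO mice (horizontal) and in WT mice (vertical), 1 pool a side; grey points are all probes above background and orange diamonds the brightest probe of each surface colonocyte gene. Aqp8 lay far left near 0 on the vertical axis, and Slc20a1 and Slc9a3 lay in opposite quadrants.

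Markers of other cell types and gut segments moved with these pools, and their part in the results was not tested. The summed signal of 4 measured ileal markers was 948 untreated, 916 after ethanol and 8831 after TNBS in Foxo4_KO mice, against 638, 1126 and 5547 in WT mice, and Fabp6, the ileal bile acid binding protein, read 12.15 in the Foxo4_KO and 11.74 in the WT TNBS pool against 6.71 to 8.09 in the other 4. Of 3 measured neutrophil genes the sum was 275, 277 and 5062 in Foxo4_KO, against 271, 365 and 430 in WT mice, so the Foxo4_KO TNBS pool carried the most. In that pool Aqp8, Car1, Car4, Slc26a3 and Slc20a1 were lowest, and Guca2a and Slc9a3 highest. The sum of 5 smooth muscle markers was 2187, 16663 and 14695 in Foxo4_KO, against 1937, 2549 and 6848 in WT mice. Distal colon markers summed to 2143, 2270 and 2719 in Foxo4_KO, against 3700, 5183 and 5214 in WT mice. Each sum was lower in the Foxo4_KO pool than in its WT counterpart. All 6 measured markers were lower in Foxo4_KO mice untreated and after ethanol, while after TNBS 3 were lower and 2 higher. Hoxb13, a homeobox gene of the hindgut, read 10.35 to 10.48 in Foxo4_KO and 11.07 to 11.54 in WT mice. Leukocyte markers summed to 3927, 4863 and 3130 in Foxo4_KO, against 2111, 1231 and 1367 in WT mice. Pan-epithelial markers summed to 9778, 8576 and 8404 in Foxo4_KO, against 8511, 9903 and 11008 in WT mice. The marker that differed most, Cldn7, read 11.93, 11.29 and 11.22 in Foxo4_KO, against 11.25, 11.84 and 12.00 in WT mice. In TNBS against ethanol pools of Foxo4_KO mice 2 measured markers were higher and 3 lower, with a median of -0.05. After TNBS all 5 were lower in Foxo4_KO than in WT mice, with a median of -0.30. Crypt markers summed to 1556, 1746 and 1940 in Foxo4_KO, against 1396, 1696 and 1747 in WT mice, higher in the enema pools of both genotypes. In ethanol against untreated pools 5 of 8 measured crypt markers were higher and 3 lower, with a median of 0.14 against 0.00 over all probes, and none was called. Goblet markers summed to 66300 to 73141 in Foxo4_KO and 71702 to 79064 in WT mice. Of the neutrophil list Ly6g had no probe under that symbol. Defining markers with a probe but not above background included Mpo and Cxcr2 of the neutrophil list, Ptprc of the leukocyte list, Slc10a2 and Fabp2 of the ileal list and Krt8 of the epithelial list.

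**Figure D4:**
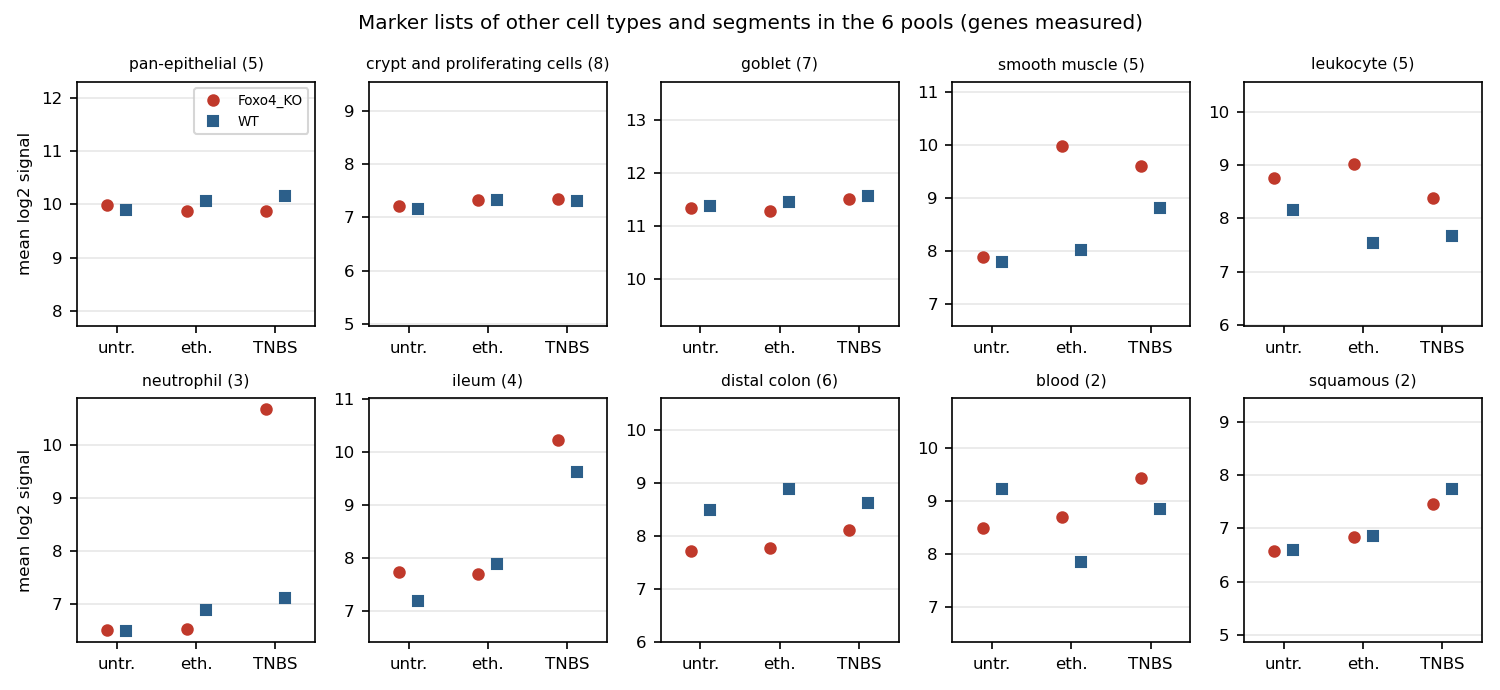
Mean log2 signal of the measured genes of 10 marker lists in the 6 pools (untr., untreated; eth., ethanol), number of genes in parentheses, with the same vertical span in every panel. Ileal markers were higher in both TNBS pools, and neutrophil markers were highest in the Foxo4_KO TNBS pool. Smooth muscle markers were higher in the enema pools of Foxo4_KO mice and, to a lesser extent, in the WT TNBS pool.

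Of 591 probes with a range of at least 1 log2 unit, those closest in profile over the 6 pools, by the distance between levels centred on their mean, were Sult1a1 (0.41), Ly6g6c (0.78) and Acaa2 (0.79) for Aqp8. The Sult1a1 probe was the dimmer of the gene, and its brighter one read 13.15, 13.23 and 12.73 in Foxo4_KO mice, against 13.50, 12.78 and 12.49 in WT mice, a different profile. For Mep1a they were Irak2 (0.21) and a Kdm6a probe (0.37), for Car4 Npc1 (0.23) and Zan (0.25), and for Slc20a1 Hao2 (0.55) and Sri (0.60). These distances describe 6 arrays and carry no test.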

How the data were processed

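RNA pooled from 5 mice was hybridised to 1 Illumina bead array for each of 6 pools. The deposited tables, per the file headers, held unnormalised mean bead signals (intensity) with a detection column, and separately the authors' normalised signal values; the column headed as a p-value, a fraction that grew with signal in the deposited file, was read as 1 minus p. How the authors normalised them is not stated per the labels. The unnormalised table had no probe identifiers, so its 46628 targets were joined to the value table's probes by their 6-array profile; 46591 joined (99.9%), 19 of them, Car1 and Guca2a included, in a rank-based pass added when those 2 had not joined. Of 8598 targets named by Entrez number, 92.5% carried their probe's own, and of 3805 named by an accession, 86.4% did.

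Signals were processed with neqc in limma 3.58.1 (R 4.3.3; offset 16; log2). limma fitted treatment and genotype additively over 6 pools with 2 residual degrees of freedom and Benjamini-Hochberg adjustment over 11760 probes of 8947 genes, those with detection p under 0.01 on at least 1 array. The number of arrays limits the precision. The members and the gene lists were chosen with earlier results of these data known. Brightest probes and the 3 Slc26a3 probes are given contrasts; the dimmer Aqp4 and Slc20a1 probes only levels, decided after their instability between settings was seen. Named neighbours were the closest profiles among probes ranging over at least 1 log2 unit. The alternatives were another normalisation, offset, filter, variance prior, value source and probe choice, and leaving out each pool. Both versions of median scaling were run: over all probes, as planned, and over probes detected on all 6 arrays, which was chosen after the first version's values had been seen.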

Additional observations from a re-analysis of the deposited data

Results flagged for a closer look

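For 3 surface colonocyte genes, single-pool differences ran in opposite directions between groups by at least 0.3 log2 each way; with 1 pool a side the differences were not tested. TNBS minus ethanol was 0.56 in Foxo4_KO and -0.59 in WT mice for Slc9a3, 1.159 apart, and -1.56 and 0.80 in the same genotypes for Slc20a1, -2.361 apart; 1.32% of all probes opposed in this way. Equivalently, Foxo4_KO minus WT was 0.83 after TNBS and -0.33 after ethanol for Slc9a3, 1.159 apart, and -1.48 and 0.88 for Slc20a1, -2.361 apart. For Aqp8 it was -1.64 after TNBS and 0.85 after ethanol, -2.492 apart, where 1.85% of all probes opposed. For Slc20a1 it was 0.88 after ethanol and -0.39 untreated, 1.268 apart, where 1.39% of all probes opposed. The Foxo4_KO TNBS array, on which the first 5 of these values rest, stood apart from the other 5, and ileal and neutrophil markers were higher in it; their part in these differences was not tested.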

How the results depend on the processing

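No paired analysis was possible because the groups share only replicate number 1, with 1 pool each; the additive model itself compares the genotypes within treatments. The additive contrasts called 0 probes in the main setting and in each fit that left out 1 pool, while other settings made calls: the authors' values 14 higher for Foxo4_KO minus WT, 19 higher for TNBS minus ethanol, and 37 higher and 2 lower for TNBS minus untreated; the trended and robust prior 5 higher and 1 lower, 1 lower for ethanol minus untreated, 11 higher, and 22 higher and 3 lower; the brightest probe per gene 1 higher in each TNBS contrast.

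Median scaling was run in 2 versions and they disagree. Over all probes, the planned version, it called 0 probes. The version over probes detected on all 6 arrays, chosen after the planned one had been seen, made calls in every contrast. They were 130 higher and 52 lower for Foxo4_KO minus WT, and 21 and 21 for ethanol minus untreated. For TNBS minus ethanol they were 71 and 29, and for TNBS minus untreated 144 and 88. The prior SD was 0.234 in place of 0.0635. The prior degrees of freedom were infinite in that version and finite in the main setting. With infinite prior degrees of freedom the fit gives every probe the same SD, whatever its own spread. Only in that version did members pass: Mep1a for ethanol minus untreated (-0.88, adjusted p = 0.0437), Aqp8 for TNBS minus ethanol (-1.38, 1.01e-06) and TNBS minus untreated (-1.68, 2.17e-10), and Slc20a1 for TNBS minus untreated (-0.88, 0.0113). Those calls are therefore not taken as results. The versions shifted the median of all probes for Foxo4_KO minus WT after TNBS by 0.21 and by -0.33. Members changed sign over all probes for Mep1a (0.11) and Guca2a (-0.027) in Foxo4_KO minus WT, Aqp4 in ethanol minus untreated (-0.0772), and Car4 (0.26) and Slc9a3 (0.25) in TNBS minus ethanol; over detected probes for Guca2a in Foxo4_KO minus WT (-0.15), ethanol minus untreated (0.019) and TNBS minus ethanol (-0.0166), and for Car1 (0.0721) and a dimmer Slc26a3 probe (0.10) in ethanol minus untreated. The cause was not tested.

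Counts of probes at least 2-fold apart in single pools moved under median scaling over all probes, for Foxo4_KO minus WT to 25 higher and 61 lower untreated (main 43 and 21) and 640 and 13 after TNBS (116 and 66), for ethanol minus untreated to 23 lower in Foxo4_KO (13) and 11 higher and 187 lower in WT (24 and 31), and for TNBS minus ethanol in Foxo4_KO to 646 higher and 28 lower (116 and 115). The authors' values gave 192 higher for Foxo4_KO minus WT after ethanol (116), 6 lower for ethanol minus untreated in Foxo4_KO (13) and 1 lower for TNBS minus ethanol in WT (3); an offset of 50 gave 8 and 1 for the last pair. Slc20a1 for ethanol minus untreated in WT was -1.02, and -0.81 and -0.92 under these settings.

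Leaving out 1 pool turned the sign of these members, given as the lowest and highest value. For Foxo4_KO minus WT they were Aqp8 (-0.76 to 0.49), Guca2a (-0.00745 to 0.0741), Mep1a (-0.14 to 0.10), Slc20a1 (-0.93 to 0.25), Slc26a3 (-0.15 to 0.0369) and Slc9a3 (-0.27 to 0.31). For TNBS minus ethanol they were Aqp4 (-0.0163 to 0.65), Car4 (-0.24 to 0.17), Mep1a (-0.0574 to 0.31), Slc20a1 (-1.29 to 0.52) and Slc9a3 (-0.56 to 0.53). For TNBS minus untreated they were Slc20a1 (-1.64 to 0.0891) and Slc9a3 (-0.80 to 0.29). For ethanol minus untreated they were Aqp4 (-0.12 to 0.44), Aqp8 (-1.12 to 0.49), Car1 (-0.21 to 0.145), Slc20a1 (-1.30 to 0.52) and Slc9a3 (-0.56 to 0.0813). For TNBS minus untreated Aqp8, Mep1a, Car4, Slc26a3 and Car1 (-0.72 to -0.04) stayed lower in each of these fits. Aqp4 (0.14 to 0.81) and Guca2a (0.02 to 0.17) stayed higher. The authors' values and the other offset turned no sign of an additive contrast among the 11 probes given contrasts. The authors' values also served to join targets to probes, so they are not an independent check. Both filters, the other prior and the brightest probes refitted the same levels of each probe, so they could turn no sign. Over all 15, probes higher for TNBS minus ethanol were 4 with the authors' values and 5 in the main setting. They were 8 under median scaling over all probes and 2 over detected probes. Of the counts chosen after the data were seen, probes lower in every enema pool were 5, and 5, 7 and 6 with the pools left out as in the text.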
